A study of Rattus norvegicus with 29 samples.

Results

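The genes described here encode the receptors of the netrins (Dcc, Neo1, Unc5a, Unc5b, Unc5c and Unc5d) and the secreted ligands netrin-1 (Ntn1) and netrin-4 (Ntn4). They were followed in RNA from rat dorsal root ganglia, the clusters of sensory neurons beside the spinal cord. Of the 8 genes listed, 7 had a row among the 18092 RefSeq transcripts counted (16238 genes with a symbol), and no row was matched to Neo1. Each of the 7 was represented by 1 transcript, and all 7 were among the 12556 transcripts tested. The genes were chosen by family, and Dcc and Unc5d were selected on their CPM values (counts scaled by library size), which were higher in stroke than in sham libraries. For the members every comparison with sham rats is therefore given below as a description, without a test, and supports nothing by itself, and counts of calls over all transcripts stand beside it as background. The comparison of neurotrophin-3 (NT3) with vehicle uses the same stroke libraries, since the rats of both arms had a stroke. The comparisons of week 11 with week 5 were not used in the choice.

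All rats were Lister Hooded, described in the series title as elderly, and ganglia C6 to C8, which serve the forelimb, were taken from the affected side. Sham rats (called naïve in the series text) gave 4 libraries at week 5 and 5 at week 11. Rats with a unilateral cortical stroke and a vehicle infusion, and rats with the same stroke and NT3 infused under the skin, gave 5 libraries each at week 5 and at week 11. The series text gives an infusion to rats with a stroke but names none for the others, so stroke and infusion cannot be told apart in any comparison with sham. Each library came from another rat.

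Netrins are secreted guidance cues of the laminin superfamily that steer growing axons. DCC and neogenin, the product of Neo1, are transmembrane receptors through which netrin-1 mostly attracts axons, whereas UNC5 receptors, alone or together with DCC, mediate repulsion. Both kinds of receptor are also known as dependence receptors, which can signal cell death when no ligand is bound, and sensory neurons of the dorsal root ganglion express several of them during development and after injury.

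Depth ran from 16703574 to 22773108 assigned reads in 28 libraries and was 9555685 in week 11 vehicle rat 27. In that rat transcripts of brain and myelin-forming oligodendrocytes were far above the other libraries, with Mobp at 90.8 CPM against a median of 0.995 and Nrgn at 65.9 CPM against 0.901. Reads outside annotated features were 25.4% to 38.3% of the reads assigned, ambiguous or outside features, lowest in week 11 sham rat 8 and highest in rat 27. This share averaged 31.2% ± 1.15 (SD, n = 4) in week 5 sham and 30.2% ± 3.82 (SD, n = 5) in week 11 sham libraries. In the 4 stroke groups it averaged 33.0% ± 1.83 and 33.8% ± 3.11 (vehicle, week 5 and week 11) and 32.8% ± 1.77 and 32.3% ± 1.95 (NT3), each with n = 5. The tissue carried the neuronal markers of a sensory ganglion, with medians of 1173 CPM for Prph, 4340 CPM for Nefh and 975 CPM for Scn10a. Of the markers listed, Tac1, Col1a2 and Aqp4 had 0 reads, and Ntrk3, the NT3 receptor gene, had 1 read over all libraries. Transcripts abundant in this tissue were also near 0, such as Snap25 (median 0.301 CPM) and Apoe (0.674 CPM), and how reads shared by several transcripts of a gene were counted is not given in the sources used here. A value near 0 therefore does not show that the gene, Ntrk3 included, was not expressed.

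Promoter sequences from RefSeq (rat build GRCr8) were at hand for 5 of the 8 genes, Dcc, Neo1, Unc5a, Unc5b and Ntn4, and for none of Unc5c, Unc5d and Ntn1. The 250 bases before the start of Dcc, a gene picked for its level in stroke rats, are shown beside those of Unc5b, an UNC5 receptor gene whose fitted difference from sham was within its standard error. CG dinucleotides, which read the same on both strands, are in capitals. The Dcc stretch lies at chr18:68247675-68247924 on the minus strand, and the Unc5b stretch at chr20:29307271-29307520 on the minus strand.
Dcc: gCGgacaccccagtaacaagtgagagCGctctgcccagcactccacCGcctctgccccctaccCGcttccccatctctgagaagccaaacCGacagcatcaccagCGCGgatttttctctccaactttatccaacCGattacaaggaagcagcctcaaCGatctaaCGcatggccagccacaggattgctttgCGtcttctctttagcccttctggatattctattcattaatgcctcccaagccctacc
Unc5b: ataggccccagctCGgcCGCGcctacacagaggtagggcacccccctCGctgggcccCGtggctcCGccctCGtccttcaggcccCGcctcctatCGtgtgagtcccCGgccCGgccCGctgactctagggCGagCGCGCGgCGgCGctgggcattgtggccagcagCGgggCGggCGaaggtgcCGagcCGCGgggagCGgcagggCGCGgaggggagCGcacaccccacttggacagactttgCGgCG
The Dcc stretch held 11 CG and was 54.0% G or C, and 33.6% of the 33469 promoters of the table held at least as many CG. The Unc5b stretch held 30 CG and was 75.2% G or C, and 5.35% of promoters held at least as many. Unc5a (25 CG), Ntn4 (27) and Neo1 (43) also stood above the table's median of 5, and 92.2% of all promoters held at least 1 CG. These counts describe sequence only, since methylation and factor binding were not measured.

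Dcc (NM_012841), the receptor through which netrin-1 attracts axons, was at the lower end of what these libraries could count. It held 595 reads in all, with 7 to 32 reads and a median of 21 per library. Counting error alone gives a coefficient of variation of 23.7% at this depth, and the variation within groups was 33.8%. In week 5 sham rats 51, 60, 64 and 74 Dcc was at 0.65, 1.04, 0.69 and 0.81 CPM. In week 5 vehicle rats 1, 9, 14, 42 and 82 it was at 0.81, 1.12, 1.81, 1.11 and 1.10 CPM. In week 5 NT3 rats 25, 56, 61, 62 and 85 it was at 1.54, 1.31, 1.02, 1.19 and 1.38 CPM. At week 5, 8 of 10 stroke libraries lay above all 4 sham libraries, and vehicle rat 1 and NT3 rat 61 lay below sham rat 60.

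At week 11 the spread of Dcc was wider. Sham rats 8, 11, 54, 63 and 81 were at 0.42, 0.39, 1.37, 0.69 and 0.80 CPM. Vehicle rats 17, 27, 33, 50 and 57 were at 1.54, 2.47, 1.17, 0.95 and 1.61 CPM, and NT3 rats 36, 69, 71, 83 and 89 were at 0.96, 0.61, 1.29, 1.59 and 1.31 CPM. Sham rat 54 lay within the stroke values, sham rats 8 and 11 were the lowest of all libraries, and vehicle rat 27, the shallowest library, was the highest. Over both weeks the mean Dcc level of the 9 sham rats was 0.762 ± 0.302 CPM (SD), that of the 10 vehicle rats 1.37 ± 0.497 CPM and that of the 10 NT3 rats 1.22 ± 0.293 CPM.

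Unc5d (NM_001107319), the UNC5 family member that also binds the cell surface protein FLRT2, was counted as sparsely, with 608 reads in all and 7 to 40 per library. Its variation within groups was 35.6%, against 23.7% from counting. In the week 5 sham rats, in the order above, Unc5d was at 0.65, 1.18, 0.79 and 0.36 CPM. The week 5 vehicle rats were at 1.03, 1.12, 2.26, 1.55 and 1.73 CPM, and the week 5 NT3 rats at 0.88, 1.17, 1.07, 1.49 and 0.75 CPM. At this week 3 vehicle libraries stood above every other library, while the NT3 libraries overlapped the sham libraries.

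At week 11 Unc5d was at 0.79, 0.67, 0.60, 1.09 and 0.96 CPM in the sham rats. It was at 1.31, 2.06, 1.34, 0.55 and 1.29 CPM in the vehicle rats and at 1.54, 0.52, 1.33, 1.54 and 1.66 CPM in the NT3 rats. Of the 10 stroke libraries 8 lay above all 5 sham libraries, and the remaining pair, vehicle rat 50 and NT3 rat 69, lay below all 5. Over both weeks the mean Unc5d level was 0.787 ± 0.257 CPM (SD) for the 9 sham rats, 1.42 ± 0.501 CPM for the 10 vehicle rats and 1.20 ± 0.385 CPM for the 10 NT3 rats.

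**Figure D1:**
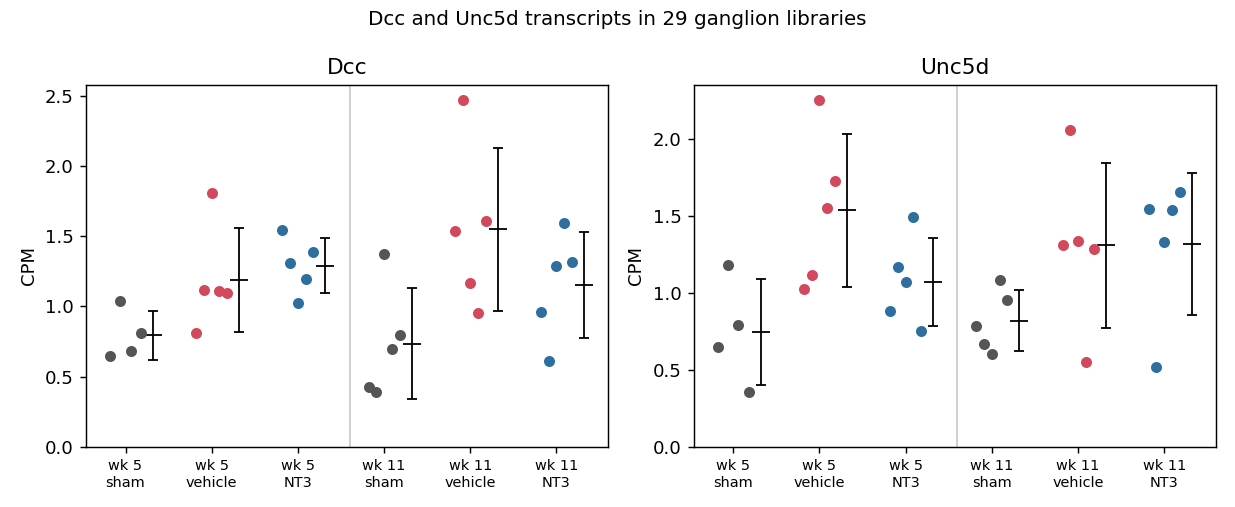
Level of Dcc (left) and Unc5d (right) in CPM in each of the 29 libraries, by week and treatment, with points for single rats and a cross bar for the group mean with its SD. Most stroke libraries lie above most sham libraries at both weeks, with overlap in each, and Dcc reaches its highest value, 2.47 CPM, in week 11 vehicle rat 27.

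As a description of the difference that chose these genes, the mean Dcc level of the 20 stroke libraries was 1.70 times that of the 9 sham libraries, and that of Unc5d 1.66 times. The fitted log2 difference of stroke from sham, with the weeks averaged, was 0.73 (SE 0.20) for Dcc and 0.71 (SE 0.21) for Unc5d. By week it was 0.63 (SE 0.29) at week 5 and 0.82 (SE 0.27) at week 11 for Dcc, and 0.78 (SE 0.32) and 0.63 (SE 0.29) for Unc5d. With the weeks averaged, rats given vehicle differed from sham by 0.79 (SE 0.22) in Dcc and 0.82 (SE 0.24) in Unc5d. Rats given NT3 differed from sham by 0.66 (SE 0.22) in Dcc and 0.59 (SE 0.24) in Unc5d. edgeR called 0 of 12556 transcripts (0%) in stroke against sham, with the weeks averaged, at week 5 or at week 11. In vehicle or NT3 against sham it called 0 (0%). At an unadjusted p under 0.05 edgeR counted 2422, 673 and 1629 transcripts in the stroke comparisons, 2118 in vehicle and 1331 in NT3 against sham. These counts are the background of the comparisons and no test of the members. Dcc and Unc5d passed the filter on low counts also through the stroke rats. In CPM before TMM scaling, Dcc exceeded the 0.535 CPM cut in 7 of 9 sham and 20 of 20 stroke libraries. Unc5d did so in 8 of 9 and 20 of 20. The member values printed here are after TMM scaling, and on that scale NT3 rat 69, at 0.52 CPM of Unc5d, lies below the cut. In whole ganglia a lower level from fewer expressing cells cannot be told apart from less RNA per cell.

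The other UNC5 receptors were not chosen for their values, so their smaller differences follow in part from the choice of Dcc and Unc5d and no difference between genes was tested. Unc5c (NM_199407), a receptor for repulsion by netrin-1, was read 232 to 751 times per library and averaged 25.3 ± 8.50 CPM over the 9 sham libraries (SD) and 30.7 ± 6.94 CPM over the 20 stroke libraries. Its fitted log2 difference was 0.29 (SE 0.17). Its sham libraries alone ran from 14.1 CPM in rat 8 to 39.9 CPM in rat 54, a range that held 20 of 20 stroke libraries. Unc5a (NM_022206), a receptor of the nervous system linked to neuronal death, was at 7.62 ± 2.09 CPM in sham and 7.30 ± 1.82 CPM in stroke libraries, a log2 difference of -0.07 (SE 0.15). Unc5b (NM_022207), which is also the netrin receptor of blood vessels, was at 12.03 ± 2.85 and 11.2 ± 2.02 CPM, a log2 difference of -0.11 (SE 0.11). Their differences were within a standard error of 0.

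Of the ligands, Ntn1 (NM_053731), the classical attractant of DCC-bearing axons, was at 2.17 ± 0.781 CPM over the 9 sham libraries (SD) and 2.45 ± 1.12 CPM over the 20 stroke libraries, a log2 difference of 0.15 (SE 0.23). With 16 to 91 reads per library it was the most variable member within groups, at 41.0%, where counting gives 16.5%. Ntn4 (NM_001106780), a basement membrane netrin, was at 11.2 ± 1.77 and 11.4 ± 1.97 CPM, with a log2 difference of 0.00 (SE 0.09). It was the least variable of the 7 within groups, at 14.6%. By week its log2 difference of stroke from sham was -0.15 (SE 0.13) at week 5 and 0.16 (SE 0.12) at week 11.

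**Figure D2:**
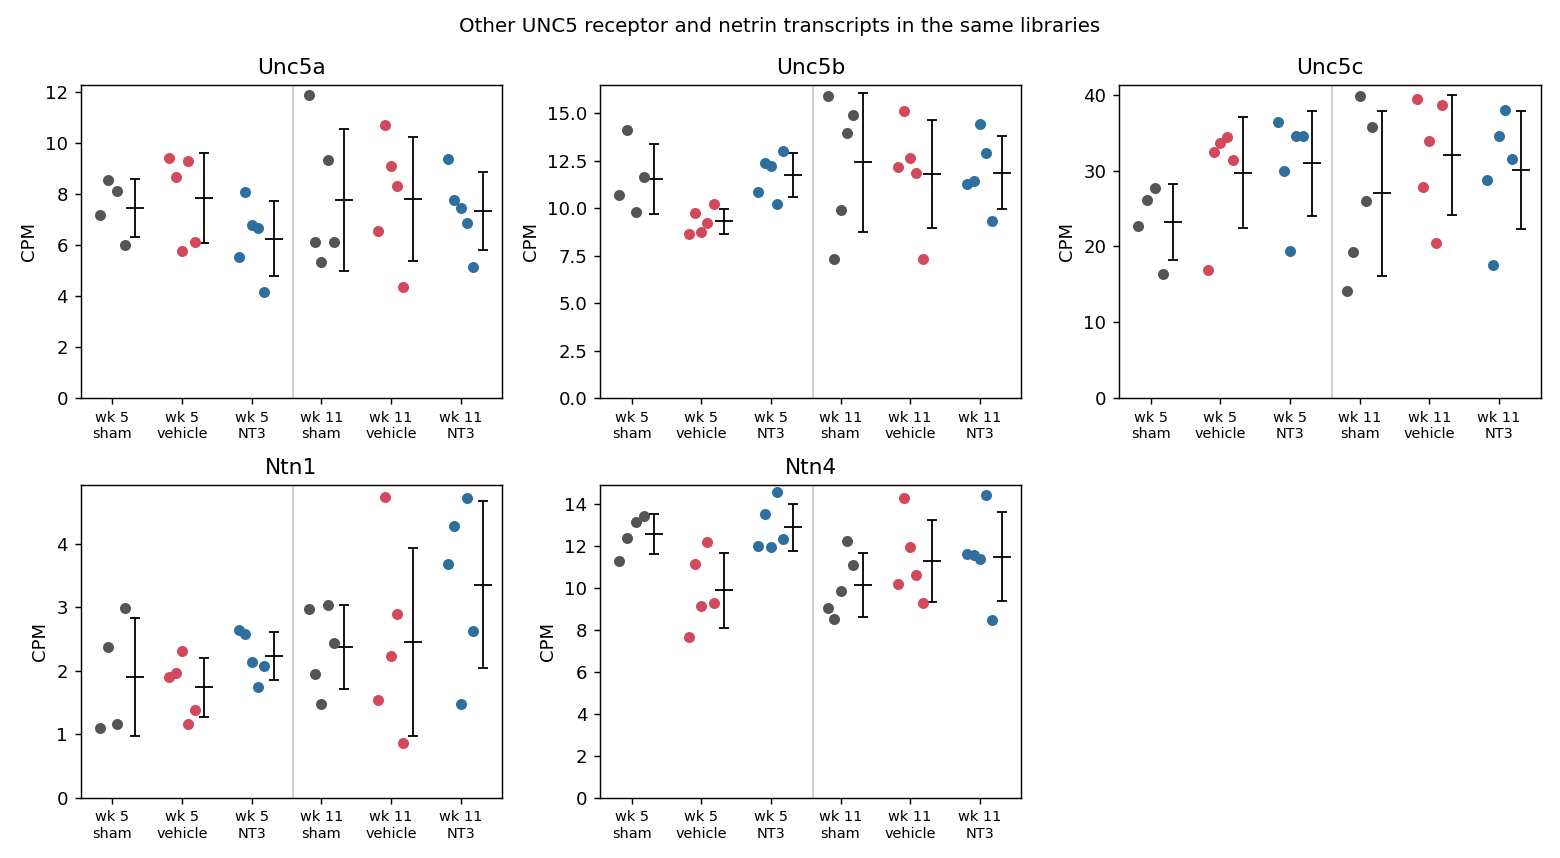
Level of Unc5a, Unc5b, Unc5c, Ntn1 and Ntn4 in CPM in each library, by week and treatment, with the group mean and its SD. Each panel has its own scale; Unc5c in week 11 sham rats runs from 14.1 to 39.9 CPM, and Unc5b in week 5 vehicle rats lies between 8.66 and 10.2 CPM.

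NT3 was compared with vehicle in rats that all had a stroke. edgeR called 0 of 12556 transcripts (0%) with the weeks averaged, 0 (0%) at week 5 and 0 (0%) at week 11, with 417, 626 and 191 at an unadjusted p under 0.05, and no member passed. With the weeks averaged Dcc differed by -0.13 on the log2 scale (95% interval -0.53 to 0.27) and Unc5d by -0.23 (-0.67 to 0.21). The intervals for Unc5a (-0.53 to 0.12), Unc5b (-0.07 to 0.42), Unc5c (-0.37 to 0.34) and Ntn1 (-0.06 to 0.92) also held 0. Ntn4 differed by 0.21 (0.02 to 0.40; edgeR quasi-likelihood test, unadjusted p = 0.0403, Benjamini-Hochberg adjusted p = 1.00). These intervals, built from the SE by the normal approximation, are not adjusted for the number of transcripts.

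At week 5 alone, Ntn4 and Unc5b had the clearest separation of NT3 from vehicle libraries. Ntn4 was at 12.01, 13.52, 11.97, 14.58 and 12.35 CPM in NT3 rats 25, 56, 61, 62 and 85 and at 7.69, 11.1, 9.14, 12.2 and 9.28 CPM in vehicle rats 1, 9, 14, 42 and 82. Of the 5 NT3 libraries 3 lay above all 5 vehicle libraries, which put Ntn4 0.38 higher on the log2 scale (SE 0.14; adjusted p = 0.726, edgeR). Unc5b was at 10.9, 12.4, 12.2, 10.2 and 13.0 CPM in the NT3 rats and at 8.66, 9.74, 8.75, 9.21 and 10.2 CPM in the vehicle rats. Here 4 of 5 NT3 libraries lay above all vehicle libraries, and the fitted value was 0.33 (SE 0.18; adjusted p = 1.00, edgeR). Neither passed the threshold after adjustment. As a description, Ntn4 averaged 12.6 CPM in week 5 sham, 9.89 CPM in vehicle and 12.9 CPM in NT3 libraries. Unc5b averaged 11.6, 9.31 and 11.7 CPM in the same order. In both genes the vehicle group was the low one, and the sham mean lay near the NT3 mean.

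The week 5 vehicle group also stood low in markers of other cells of the ganglion. The mean log2 CPM of the 9 fibroblast markers tested (of 12 listed) was 5.996 ± 0.079 (range 5.90 to 6.07) in that group and 6.47 ± 0.126 (6.33 to 6.65) in week 5 NT3 rats. That of the 12 macrophage markers (of 12 listed) was 2.76 ± 0.16 (2.48 to 2.84) and 3.34 ± 0.27 (2.96 to 3.66). In week 5 sham rats the fibroblast and macrophage values were 6.41 ± 0.167 and 3.37 ± 0.204. Of the fibroblast markers listed, Col1a2 was at 0 reads and Ogn at 4 reads in all. The part of these cells in the Ntn4 and Unc5b values was not tested.

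Unc5d had a log2 difference of NT3 from vehicle of -0.51 (SE 0.31) at week 5, and stood at 0.05 (SE 0.32) at week 11. Dcc stood at 0.12 (SE 0.29) at week 5 and -0.39 (SE 0.29) at week 11. The change of the NT3 difference between the weeks was 0.56 (95% interval -0.32 to 1.43) for Unc5d and -0.50 (-1.30 to 0.30) for Dcc. edgeR called 0 of 12556 transcripts (0%) in this test of the weeks and 0 (0%) in the same test of stroke against sham, with 378 and 223 at an unadjusted p under 0.05.

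The weeks were compared between rats of the same treatment. In vehicle rats edgeR called 106 of 12556 transcripts (0.844%) between week 11 and week 5, 104 of them higher at week 11, and none of the 7 members. In sham and in NT3 rats it called 0 (0%) each, with 468 and 198 transcripts at an unadjusted p under 0.05. In vehicle rats Unc5b differed by 0.34 (SE 0.18; edgeR adjusted p = 0.650), with 4 of 5 week 11 libraries above all week 5 libraries and 1, rat 57 at 7.30 CPM, below them. Dcc differed by 0.34 (SE 0.29) and Unc5d by -0.28 (SE 0.32), and the intervals of both held 0. Without rats 8 and 27 the Dcc difference was 0.14 (SE 0.28).

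In sham rats Ntn4 had the clearest separation of the weeks, without passing the threshold. The week 5 sham rats 51, 60, 64 and 74 were at 11.3, 12.4, 13.1 and 13.5 CPM, and the week 11 sham rats 8, 11, 54, 63 and 81 were at 9.03, 8.50, 9.84, 12.2 and 11.1 CPM. Of the 5 week 11 libraries 4 lay below all week 5 libraries, and Ntn4 differed by -0.31 on the log2 scale (SE 0.14; adjusted p = 0.988, edgeR). Ntn1 had positive differences in each treatment, 0.32 (SE 0.37) in sham, 0.44 (SE 0.36) in vehicle and 0.58 (SE 0.34) in NT3 rats, and the 95% interval of each held 0. Rat 27, at 4.74 CPM, was the highest of the vehicle rats in Ntn1, and without rats 8 and 27 the difference in vehicle rats was 0.11.

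**Figure D3:**
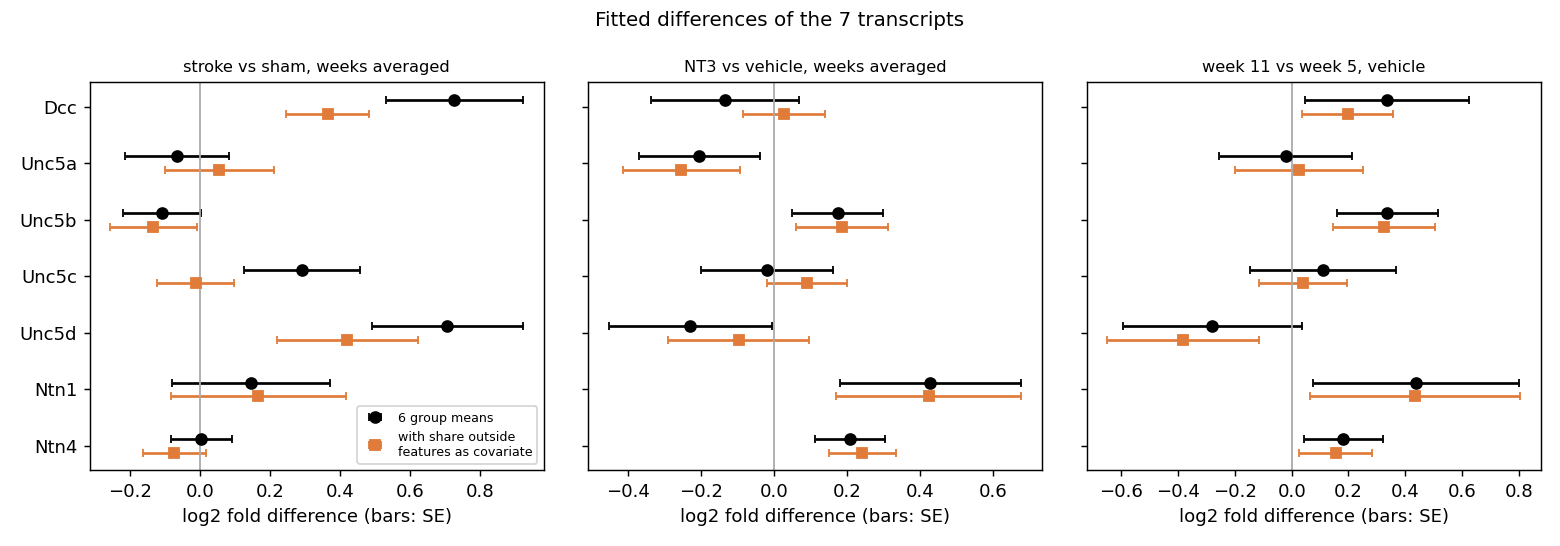
Fitted log2 differences of the 7 transcripts with their SE for stroke against sham (weeks averaged), NT3 against vehicle (weeks averaged) and week 11 against week 5 in vehicle rats, from the fit of 6 group means (circles) and from the fit with the share of reads outside features as a covariate (squares). In the left panel Dcc moves from 0.73 to 0.37, Unc5d from 0.71 to 0.42 and Unc5c from 0.29 to -0.01 when the share is added.

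Dcc and Unc5c went closely, from rat to rat, with the share of reads that fell outside annotated features, and Unc5d less closely. After each group's mean was removed, the log2 level of Dcc correlated with this share over the 29 libraries with a Pearson r of 0.88 (Spearman rho 0.87; permutation within groups, p = 1e-05, the smallest it can give, adjusted p = 0.000525 over 70 pairs of member and measure). Without the 2 libraries farthest from the median share, r was 0.87. Of all 12556 transcripts 61 (0.486%) had a higher r, and the median r was 0.04. For Unc5c r was 0.81 (rho 0.68; permutation adjusted p = 0.000525; 0.76 without the 2 farthest libraries), and for Unc5d it was 0.55 (rho 0.55; permutation adjusted p = 0.0199; 0.60 without them). A higher r was held by 336 transcripts (2.68%) for Unc5c and by 3134 (25.0%) for Unc5d. An r as high as that of Unc5d was therefore common among all transcripts. Unc5a (r = -0.34), Unc5b (0.11), Ntn1 (-0.08) and Ntn4 (0.38) did not pass.

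The sham libraries at the ends of the share show this. Sham rats 8 and 11, with 0.42 and 0.39 CPM of Dcc, had 25.4% and 27.0% of reads outside features, and sham rat 54, with 1.37 CPM, had 34.05%. Between these ends the order was not strict. Sham rat 81, with 0.80 CPM, had 33.1%, and sham rat 60, with 1.04 CPM, had 32.4%. Vehicle rat 27, with 2.47 CPM, had 38.3%. With the share as a covariate the fitted difference of stroke from sham was 0.37 (SE 0.12) for Dcc, 0.42 (SE 0.20) for Unc5d and -0.01 (SE 0.11) for Unc5c. Without rats 8 and 27 and with no covariate it was 0.61 (SE 0.19), 0.65 (SE 0.22) and 0.22 (SE 0.16). What sets this share, and its part in the differences, was not tested.

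**Figure D4:**
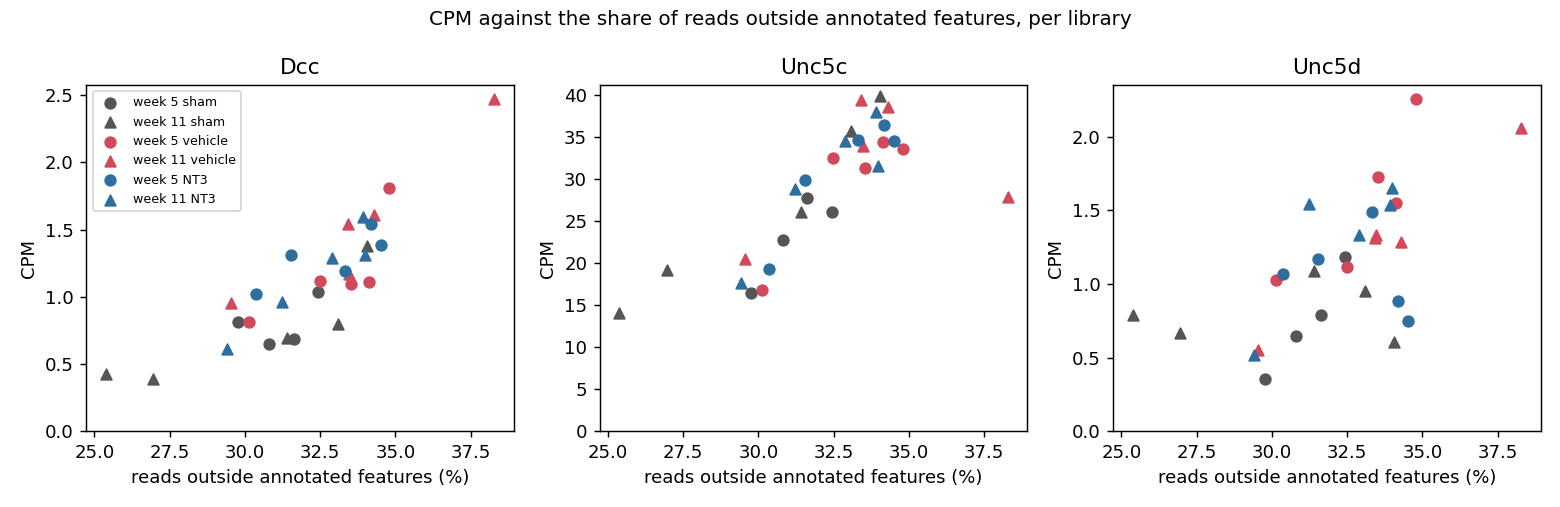
Level of Dcc, Unc5c and Unc5d in CPM against the share of reads outside annotated features in percent, with 1 point per library, coloured by treatment and shaped by week. Dcc runs from 0.39 and 0.42 CPM in the sham rats of lowest share to 2.47 CPM at 38.3%, and the within-group r is 0.88 for Dcc, 0.81 for Unc5c and 0.55 for Unc5d.

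Between the members themselves, 1 of 21 pairs passed within groups. Dcc and Unc5c correlated with r = 0.71 (rho 0.66; permutation p = 0.00036, adjusted p = 0.00756), and both went with the share of reads outside features. Without the 2 libraries farthest from the median Dcc level, and with group means taken anew, r was 0.62 and the pair no longer passed (permutation adjusted p = 0.0651). Dcc and Unc5d, the genes picked together, had r = 0.51 (rho 0.48; permutation adjusted p = 0.0778). The ligands and Dcc were hardly related, with r = 0.03 for Ntn1 and 0.28 for Ntn4.

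Several members went with marker scores of the ganglion's cell types, some of them with the same score, and no difference between members was tested. These r values were not compared with those of all transcripts and do not assign a receptor to a cell type. Dcc and Unc5c also followed the share of reads outside features (r = 0.88 and 0.81). Ntn1 went with fibroblast markers (r = 0.77, rho 0.73, permutation adjusted p = 0.00196) and with macrophage markers (r = 0.60, rho 0.53, adjusted p = 0.0402). Unc5c went with the pan-neuronal markers (r = 0.70, rho 0.58, permutation adjusted p = 0.000525), with large-diameter neuron markers (r = 0.64, rho 0.46, adjusted p = 0.0149) and with satellite glia markers (r = 0.75, rho 0.76, adjusted p = 0.000525), and Unc5a went against the latter (r = -0.65, rho -0.64, adjusted p = 0.0091). Dcc went with satellite glia (r = 0.55) and with endothelium and pericytes (r = 0.52), both at a permutation adjusted p of 0.0402, and Ntn4 with endothelium and pericytes (r = 0.49, rho 0.53, adjusted p = 0.0331). These adjusted p values are those of Pearson r. By rank, Unc5c with large-diameter neurons (permutation adjusted p = 0.169) and Ntn1 with macrophages (0.0543) did not pass. Without the 2 farthest libraries their r was 0.55 and 0.51. All macrophage markers but Cd163 were highest in rat 27. Of the satellite glia markers Slc1a3 had 4 reads in all and was not in the score, whereas Apoe, at a median of 0.674 CPM, was. The pan-neuronal score likewise held Snap25, at a median of 0.301 CPM. With the pan-neuronal score as a covariate the differences of stroke from sham were 0.66 (SE 0.20) for Dcc, 0.56 (SE 0.20) for Unc5d and 0.12 (SE 0.13) for Unc5c. That score ran from 8.29 to 8.71 in sham and from 8.27 to 8.82 in stroke libraries.

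Among 11008 named transcripts of at least 1 mean CPM, those most like Dcc over the 29 libraries, after removal of group means, were Abca1, a cholesterol exporter (r = 0.87), Adam4 (0.86), Nlrp1a, an inflammasome sensor (0.86), Klhl31 (0.86) and Tcf20, a transcriptional coregulator (0.86). Those most like Unc5d were Gabra4, a GABA-A receptor subunit (r = 0.77), Syt1, a calcium sensor of synaptic vesicles (0.76), Pstpip2 (0.76), Csrnp3 (0.73) and Zmat4 (0.73). The lists shared no gene. Unc5d stood 2465th for Dcc, and Dcc stood 579th for Unc5d. These ranks are descriptions over libraries that share the axis described above.

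Other genes of the pathway were taken from lists of known partners. Of 4 other netrin family transcripts, 17 tested extracellular partners (of 21 listed) and 26 tested intracellular effectors (of 32), 0 were called in either direction in stroke against sham, NT3 against vehicle or week 11 against week 5, where the background was 0% apart from 0.844% for the weeks in vehicle rats. In stroke against sham the median log2 difference was 0.10 for the netrins (3 of 4 positive), 0.18 for the extracellular partners (13 of 17 positive) and -0.01 for the effectors (11 of 26 positive). Over all tested transcripts it was -0.00, with 49.8% positive. In NT3 against vehicle the medians were 0.00, -0.02 and -0.02.

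Named by size of the stroke difference, the partners at the upper end were Bmpr2, a BMP receptor, and Flrt2, a ligand of UNC5 receptors. Bmpr2 was at 59.7 ± 17.7 CPM over the 9 sham libraries (SD) and 86.7 ± 22.8 CPM over the 20 stroke libraries (log2 difference 0.54, SE 0.17), and Flrt2 at 7.59 ± 2.85 and 10.2 ± 2.62 CPM (0.43, SE 0.19). At the lower end were Adora2b, an adenosine receptor reported to bind DCC (-0.21, SE 0.10), and Gpc3, a glypican (-0.09, SE 0.12). Gpc3 changed sign by week, at -0.44 (SE 0.17) in week 5 and 0.26 (SE 0.16) in week 11.

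Among the effectors the highest differences were those of Ppp3ca, a calcineurin subunit (0.33, SE 0.20), and Map1b, a microtubule-associated protein of growing axons (0.30, SE 0.12). The lowest were Pick1, a scaffold protein that binds UNC5 (-0.15, SE 0.09), and Siah2, a ubiquitin ligase acting on DCC (-0.15, SE 0.05). The netrin family members Ntng1 and Ntng2, membrane-anchored netrin-G proteins, differed by 0.18 (SE 0.08) and 0.03 (SE 0.11), and Ntn3 by -0.07 (SE 0.15). None of these transcripts was called.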

How the data were processed

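Poly-A RNA of whole C6 to C8 ganglia was sequenced from stranded libraries, 1 per rat, and RNA integrity was above 7.6 per the labels. The submitters' processing notes name bcl2fastq 1.8.4, TopHat2, Picard, HTSeq and the genome rn6 (Rnor_6.0) and do not say what each tool was used for. The authors deposited counts of reads per RefSeq transcript after removal of duplicates, not normalized, in 29 files of 18092 transcripts. A smaller table of 15308 transcripts held identical values (443932 of 443932). Symbols came from a RefSeq table of a later assembly, which matched 17090 transcripts and left 1002 without a symbol. Promoter sequences are RefSeq's for GRCr8, and no coordinate of the authors' build was used.

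The members and gene lists were chosen with earlier results of these data known. Groups were taken from the labels. Rat numbers were unique to a library, so no samples were paired. In R 4.3.3, edgeR 4.0.16 kept 12556 transcripts (filterByExpr, minimum count 10, total 15), scaled libraries by TMM (0.974 to 1.061) and fitted 6 group means to 29 libraries by quasi-likelihood (common biological coefficient of variation 0.185). A call is a Benjamini-Hochberg adjusted p under 0.05 over all tested transcripts of a contrast, two-sided. Correlations used log2 CPM (prior count 2) minus group means and 100000 permutations within groups (scipy 1.17.1), two-sided. The text names all members, from each pathway list the 2 highest and 2 lowest stroke differences of at least 1 mean CPM, and the 5 transcripts most like Dcc and like Unc5d. Marker scores are mean log2 CPM of listed markers that were tested. The CPM of single markers and the counts of libraries over the filter cut were taken before TMM scaling.

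Depth was 9555685 to 22773108 assigned reads, which left Dcc with 7 to 32 and Unc5d with 7 to 40 reads per library. Alternatives were DESeq2 1.42.0, voom of limma 3.58.1 with quality weights, DESeq2 size factors, no filter, the smaller table, sums per gene, only the groups compared, both covariates, exclusion of rats 8 and 27, and exclusion of each library in turn. The pipeline was tested on simulated data. Changes were planted only in transcripts with a higher mean CPM than Dcc, Unc5d and Ntn1, so the simulation does not cover these genes.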

Additional observations from a re-analysis of the deposited data

Results flagged for a closer look

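Among 42 groups of 4 or 5 libraries (7 members in 6 groups), 2 held a library far from the rest by Dixon's criterion, and chance flags about 1 group in 20. Unc5c in week 5 vehicle rats was at 16.8 CPM in rat 1, while the other 4 rats were at 31.4 to 34.4 CPM, a gap of 0.828 of the group's range. Unc5d in week 11 NT3 rats was at 0.517 CPM in rat 69, while the other 4 rats were at 1.33 to 1.66 CPM, a gap of 0.717 of the range. Both rats had the lowest share of reads outside annotated features in their group, 30.1% in rat 1 and 29.4% in rat 69. The part of this share in the low values was not tested.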

How the results depend on the processing

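No paired analysis was possible because each rat number belongs to 1 library. No member was called by edgeR in NT3 against vehicle or between the weeks, and several of the members' small differences changed sign in some settings. For example, with the share of reads outside features as a covariate Unc5c in stroke against sham was -0.01 and Dcc in NT3 against vehicle 0.03, and Ntn4 in stroke against sham, at 0.00, kept its sign in 4 of 9 settings. In stroke against sham edgeR called 0, and voom called 10 with the weeks averaged and 3 at week 11, DESeq2 1 at week 5, and voom 1 in the test between the weeks. In vehicle against sham DESeq2 called 4 and voom 36. Voom called 36 in NT3 against vehicle at week 5, and 2209 in sham rats between the weeks (Unc5c among them, 0.55, adjusted p = 0.0371), where DESeq2 called 1. The 106 calls in vehicle rats between the weeks became 201 with DESeq2, 1 with the pan-neuronal covariate, 24 without rats 8 and 27, 0 with only these groups fitted, and 1 to 214 without 1 library each, with 1 when week 5 rat 1 or week 11 rat 27 was left out. The 1 pair of correlated members became 2 without rats 8 and 27 (Unc5c and Unc5d, r = 0.60, adjusted p = 0.0466) and 0 without the 2 libraries farthest from the median (Dcc and Unc5c, adjusted p = 0.0651). The causes were not tested. Of the members' own differences under these settings, 3499 kept their side of the threshold and moved by less than 1 SE, 33 moved by more and 3 newly passed, all with voom: Unc5c as above, and Dcc in stroke and in vehicle against sham, contrasts it was selected on, which makes its calls no evidence. Leaving out 1 library at a time, the stroke difference was 0.65 to 0.91 for Dcc and 0.61 to 0.87 for Unc5d. Fitting only the groups compared could not be run for stroke against sham with the weeks averaged or its test between the weeks, since all groups enter. Depth limits Dcc and Unc5d most, at medians of 21 and 22 reads.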
